A study of Mus musculus with 4 samples.

Results

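The cells described here were the trabecular-like ventricular cardiomyocytes of E10.5 mouse hearts, chosen from single-cell RNA counts by 3 transcripts. A cell was kept when Tnnt2, Myl2 and Nppa each reached at least 10 UMIs per 10000 UMIs of the cell (CP10K), where a UMI is 1 captured mRNA molecule. Of 33589 barcodes in 4 libraries, 28025 passed the filters on cells, 9776 of these reached the Tnnt2 level, and 1481 met all 3 conditions. The study asked how the Cyp51 I383V mutation affects the embryonic heart, and it sequenced 2 libraries of hearts from wild-type embryos (Wt1 and Wt2) and 2 from embryos homozygous for the mutation (Ho1 and Ho2). Cyp51 encodes lanosterol demethylase, an enzyme of cholesterol synthesis. All embryos were on the C57BL/6J background at E10.5, all 4 samples carry the label CRISPR/Cas9 as treatment, and the mutation is a germline change of 1 amino acid, so that no promoter or Cre line restricts it to a cell type. How many hearts went into a library is not given in the sources used here, and nothing in the labels says that libraries of a genotype came from separate litters, so p-values measure only the spread between these samples.

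Over Wt1, Wt2, Ho1 and Ho2 there were 111, 437, 675 and 258 trabecular-like cells, and their summed counts held 1786788, 9873359, 14417183 and 5414347 UMIs. Wt1 was thus the thinnest of the 4 sums, and its cells were also the shallowest, with a median of 16320 UMIs per cell against 24284 in Wt2, 21857 in Ho1 and 21230 in Ho2. Whole libraries held between 107377100 UMIs in Ho2 and 127018819 in Ho1. No barcode was shared between trabecular-like cells of different libraries, and pairs of whole libraries shared 14 to 34 barcodes. Ho1 stood apart in sex, since Xist, transcribed from the inactive X chromosome, reached 179 UMIs per 1000000 UMIs of the summed cells (CPM) in its trabecular-like cells and 0 in those of Wt1, Wt2 and Ho2. Ho2 stood apart in mitochondrial RNA, with a median of 2.63% mitochondrial UMIs per cell against 1.76%, 1.59% and 1.79% in Wt1, Wt2 and Ho1.

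Trabeculae are the muscular ridges that grow from the inner face of the embryonic ventricle into its lumen. They are covered by endocardium across a layer of extracellular matrix called cardiac jelly, and they form under neuregulin, Notch and BMP signals while the outer, compact wall divides faster and thickens. Trabecular cardiomyocytes are known for natriuretic peptides and for connexin 40, and part of the fast conduction system develops from them.

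Tnnt2, the cardiac troponin T of the thin filament, Myl2, the ventricular regulatory myosin light chain, and Nppa, the atrial natriuretic peptide of trabeculae and atria, chose the cells, and their levels are a description only. Median Nppa per cell was 34.0, 49.3, 40.6 and 32.0 CP10K over the same order of libraries, and it ran from 10.0 to 719 over all 1481 cells. Median Myl2 was 57.3 CP10K and median Tnnt2 30.3 CP10K. Nppa was therefore spread over a far wider range than Myl2, which ran from 10.0 to 174, or Tnnt2, which ran from 10.0 to 105. The Nppa limit cut through a continuum. The 91 cells just inside it, at 10 to 12 CP10K, held 387 CPM of Nppb and 25.9 of Bmp10, and the 138 cells just outside it, at 8 to 10 CP10K, held 337 and 21.5. The Myl2 limit lay in a sparse range, with 11 cells just inside (10 to 12 CP10K) and 3 just outside (8 to 10), and the Tnnt2 limit had 27 inside and 28 outside.

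Nppa and Nppb lie side by side on chromosome 4, at chr4:148000722-148002079 and chr4:147985788-147987205 of GRCm38, with RefSeq start sites 14822 bases apart. Both genes and Bmp10, at chr6:87428994-87437677, turn up throughout the results, so their promoters are shown here from RefSeq on GRCm38.p6, from 250 bases before the start site to 50 bases after it. All 3 lie on the plus strand, at chr4:148000472-148000771, chr4:147985650-147985949 and chr6:87428744-87429043. Capitals mark matches, on either strand, to short motifs bound by cardiac transcription factors.
Nppa: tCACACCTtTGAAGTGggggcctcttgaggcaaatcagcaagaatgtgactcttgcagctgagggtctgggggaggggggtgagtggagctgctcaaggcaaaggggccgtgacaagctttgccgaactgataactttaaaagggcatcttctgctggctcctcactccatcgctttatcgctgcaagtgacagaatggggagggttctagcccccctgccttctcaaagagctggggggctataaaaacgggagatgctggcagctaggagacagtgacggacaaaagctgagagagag
Nppb: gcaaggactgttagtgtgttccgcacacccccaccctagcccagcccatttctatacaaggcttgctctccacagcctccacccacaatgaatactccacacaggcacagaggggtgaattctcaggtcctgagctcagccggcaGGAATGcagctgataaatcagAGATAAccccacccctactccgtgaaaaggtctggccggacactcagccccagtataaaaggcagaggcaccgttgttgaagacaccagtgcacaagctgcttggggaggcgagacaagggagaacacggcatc
Bmp10: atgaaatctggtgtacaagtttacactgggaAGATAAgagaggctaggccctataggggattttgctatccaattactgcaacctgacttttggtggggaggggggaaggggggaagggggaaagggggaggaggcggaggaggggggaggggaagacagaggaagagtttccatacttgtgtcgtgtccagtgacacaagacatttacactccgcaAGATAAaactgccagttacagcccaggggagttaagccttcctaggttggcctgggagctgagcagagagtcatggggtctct
The motifs searched were AGATAA for GATA factors, TNAAGTG for Nkx2-5, AGGTGTG for T-box factors and GGAATG for TEAD factors, and no match overlapped another. The Nppa window held a T-box match, as its reverse complement, and next to it an Nkx2-5 match, which began 249 and 241 bases before the start site when positions are counted back from it. The Nppb window held TEAD and GATA matches, and the Bmp10 window held GATA matches at 2 places. Of 32851 RefSeq promoters of this length, 11.2% held the GATA motif, 11.5% the Nkx2-5 motif, 5.84% the T-box motif and 14.7% the TEAD motif, so that single matches are common and are given as a description.

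The cells most like the trabecular-like cells were the 3406 cells that passed for Tnnt2 and Myl2 but stayed below 10 CP10K of Nppa, called Nppa-low Myl2 cells. They serve as the reference for what goes with Nppa inside the Myl2-positive myocardium, and the 3 genes of the rule were left out of the test. Trabecular genes that the rule did not use were higher in the trabecular-like cells. The gene lists were chosen with earlier results of these data known, so counts per list are no independent check on the name of the cells. In edgeR's quasi-likelihood test on library sums, with the library as a block, 7 of the 8 trabecular wall genes of a list were higher and none lower, against 16.2% higher and 15.3% lower among all 12349 genes tested. The median log2 fold change was 1.40 for the list and 0.003 for all genes tested. Values of these 7 genes kept their direction and their call in 14 alternatives, leaving out each library among them. DESeq2 called 1969 genes in this comparison where edgeR called 3888 (31.5%), and edgeR called 2524 without Ho1.

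Nppb, the brain natriuretic peptide, had 526, 755, 667 and 799 CPM in the trabecular-like cells of Wt1, Wt2, Ho1 and Ho2. In the Nppa-low Myl2 cells it had 65.9, 137, 122 and 124 CPM in the same order. The lowest trabecular-like sum lay far above the highest Nppa-low sum, and the log2 fold change was 2.64 (SE 0.05, adjusted p = 1.84e-23). After each cell was thinned to 2000 UMIs, Nppb was found in 44.1% to 48.4% of trabecular-like cells over the 4 libraries and in 10.8% to 15.6% of Nppa-low Myl2 cells. In endothelial cells, defined as cells below the Tnnt2 limit with UMIs of at least 3 of 5 endothelial markers, it was found in 0.446% to 1.05%. These shares serve as a background level, in which free RNA, doublets and expression by these cells were not told apart. Without thinning, Nppb was found in 75.2% to 84.0% of trabecular-like cells and in 1.56% to 6.67% of endothelial cells, whose median depths over the libraries were 16320 to 24284 and 13925 to 16755 UMIs.

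Bmp10, a ligand of the BMP family that trabecular cardiomyocytes secrete, had 57.6, 45.5, 49.7 and 62.2 CPM in Wt1, Wt2, Ho1 and Ho2. The Nppa-low Myl2 cells held 7.31, 9.37, 10.7 and 12.7. The groups did not overlap, with a log2 fold change of 2.38 (SE 0.08, adjusted p = 2.33e-18). Gja5, which encodes connexin 40, had 32.5, 41.7, 36.5 and 35.5 CPM in the trabecular-like cells and 4.74 to 10.4 in the Nppa-low Myl2 cells, a log2 fold change of 2.39 (SE 0.09). Cited1, a transcriptional co-regulator, had 842, 1442, 938 and 923 against 218 to 364, and Wt2 was the highest library in both classes. Its log2 fold change was 2.01 (SE 0.05). Smpx, a small muscle protein, differed by 0.80 (SE 0.03) on the log2 scale, Etv1, a transcription factor of the fast conduction lineage, by 0.77 (SE 0.08), and Irx3, an Iroquois factor of the same lineage, by 0.66 (SE 0.09). Gpr22, an orphan receptor, was the exception. Its trabecular-like sums of 20.6 to 34.1 CPM overlapped the Nppa-low sums of 27.2 to 36.1, and its log2 difference was -0.19 (adjusted p = 0.0516). Gpr22 passed the test as lower under 7 of the alternatives and had the opposite sign at Myl2 of at least 50 CP10K.

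**Figure D1:**
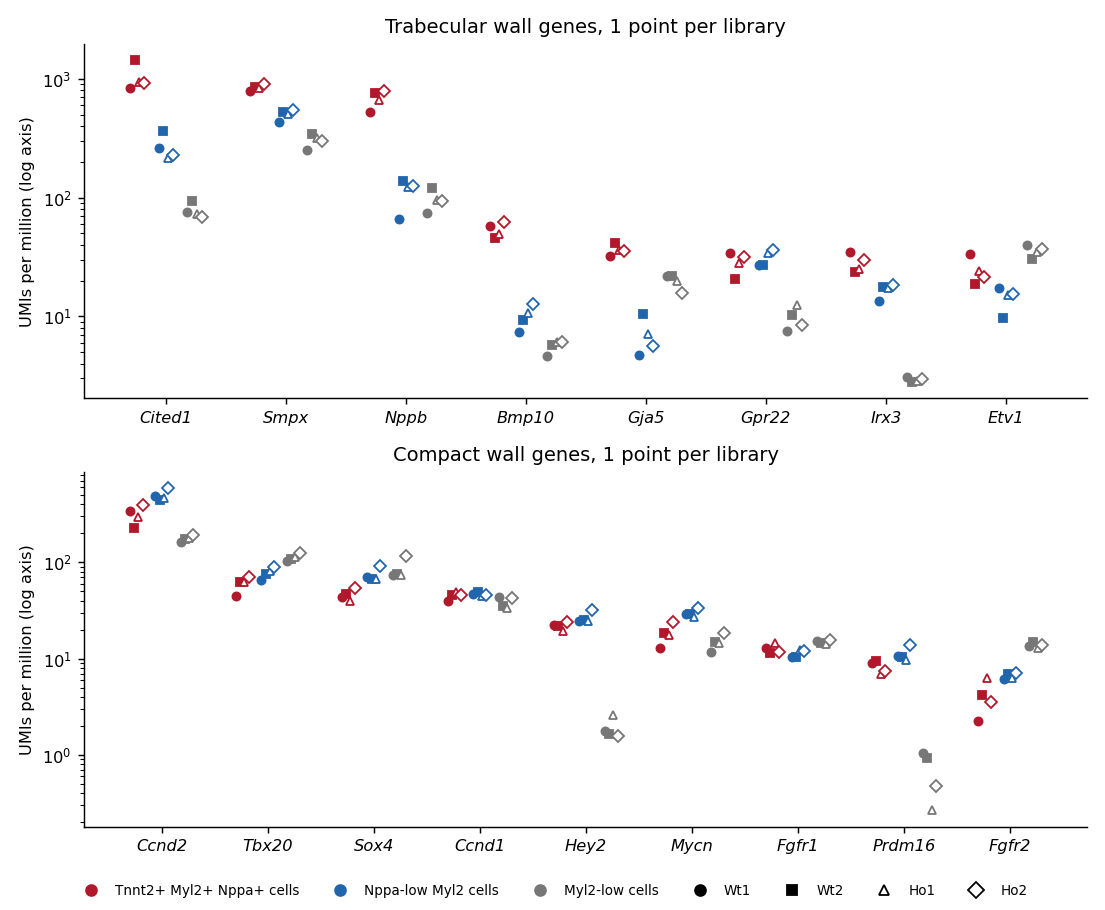
CPM (log axis) of 8 trabecular wall and 9 compact wall genes in the summed cells of each library, 1 point per library, with filled symbols for Wt and open symbols for Ho, in 3 classes of Tnnt2 cells. Nppb, Bmp10, Gja5 and Cited1 in the Tnnt2+ Myl2+ Nppa+ cells lie above both other classes in every library, while Ccnd2, Sox4 and Mycn lie below the Nppa-low Myl2 cells.

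Compact wall genes ran the other way. Of 9 genes of the list 7 were lower in the trabecular-like cells and none higher, with a median log2 fold change of -0.39. Mycn, a growth-promoting transcription factor of the compact wall, had 12.9, 18.5, 17.4 and 23.8 CPM in the trabecular-like cells of Wt1, Wt2, Ho1 and Ho2 and 29.4, 28.8, 26.7 and 33.4 in the Nppa-low Myl2 cells. Every trabecular-like sum was below every Nppa-low sum, and the log2 fold change was -0.58 (SE 0.08, adjusted p = 1.43e-06). Ccnd2, a G1 cyclin, had 337, 228, 297 and 392 against 439 to 586, a log2 fold change of -0.64 (SE 0.05). Sox4 differed by -0.63 (SE 0.05) and Tbx20, a T-box factor of the myocardium, by -0.31 (SE 0.05). The changes in Hey2, a Notch-responsive repressor of the compact wall, Prdm16, a zinc-finger factor of the compact wall, and Fgfr2, a fibroblast growth factor receptor, were small. They were -0.25, -0.39 and -0.43 on the log2 scale. Each lost its call with DESeq2, at values of -0.25, -0.41 and -0.61, with adjusted p between 0.135 and 0.163. Hey2 (-0.23 and -0.23) and Prdm16 (-0.39 and -0.27) also lost their calls without Ho1 or without Ho2. Fgfr2 lost its call without Wt1 (-0.37), Wt2 (-0.32) or Ho2 (-0.32), so that 4 of the 9 genes were lower without Ho2. Ccnd1 (0.05) and Fgfr1 (0.21) did not pass the test.

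Among genes with a mean of at least 20 CPM and 1 direction in every library, the largest rise was in Slit2, the secreted guidance ligand of Robo receptors, at chr5:47983138-48307733. It had 59.9, 66.2, 66.7 and 76.1 CPM in Wt1, Wt2, Ho1 and Ho2, and 7.82, 10.1, 8.46 and 6.71 in the Nppa-low Myl2 cells. Trabecular-like sums were at least 59.9 in every library and the other sums at most 10.1, for a log2 fold change of 3.07 (SE 0.08, adjusted p = 3.64e-20). Ntn1, the secreted guidance factor netrin 1, rose by 1.91 (SE 0.08) on the log2 scale. Mest, a paternally expressed imprinted gene, had 2520, 2387, 2367 and 2747 CPM against 614, 803, 756 and 872, a log2 fold change of 1.76 (SE 0.05). Its spread within each class was small beside the distance between the classes. Thbs4, a matrix thrombospondin (1.55, SE 0.05), and Tmem163, a zinc transporter (1.54, SE 0.07), also rose.

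Lyz2, a lysozyme gene best known from myeloid cells, had 45.3, 39.3, 50.5 and 54.3 CPM in the trabecular-like cells, 9.74 to 14.6 in the Nppa-low Myl2 cells and 0.241 to 1.53 in the Tnnt2 cells with less than 10 CP10K of Myl2. All 4 trabecular-like sums were above all others, with a log2 fold change of 1.90 (SE 0.08) against the Nppa-low Myl2 cells. The 9 macrophage markers of a list summed to 0, 15.1, 10.0 and 0.739 CPM in Wt1, Wt2, Ho1 and Ho2. The source of the Lyz2 counts was not tested.

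Among genes with a mean of at least 20 CPM and 1 direction in every library, the largest falls were in Rspo3, Bmp4, Cox4i2, Tgfb2, Wnt11, Itm2a, Igfbp5, G0s2, Lef1 and Id1. Rspo3, a secreted enhancer of Wnt signalling, had 1.12, 3.44, 14.8 and 10.3 CPM in the trabecular-like cells of Wt1, Wt2, Ho1 and Ho2 and 116, 94.6, 125 and 124 in the Nppa-low Myl2 cells. No trabecular-like sum came near the Nppa-low range, and the log2 fold change was -3.56 (SE 0.13, adjusted p = 3.01e-17). Bmp4, a BMP ligand of the outflow tract, fell by 2.75 (SE 0.12) on the log2 scale, Tgfb2, a TGF-beta ligand, by 1.86 (SE 0.07), and Wnt11, a non-canonical Wnt ligand, by 1.60 (SE 0.09). Genes of the atrioventricular canal and the outflow tract were among those that fell. Of 10 genes of the atrioventricular canal and conduction list 7 were lower, including Isl1 (-1.99), Bmp2 (-1.75), Tbx3 (-1.64) and Tbx2 (-1.56), and 2 were higher, the connexin 43 gene Gja1 (1.35) and the channel gene Hcn4 (1.05). Of 8 outflow tract genes tested 7 were lower and none higher.

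Which regions of the heart the Nppa-low Myl2 cells came from was not tested. The 1313 cells with Myl2 and no UMI of Nppa held 218 CPM of Rspo3. When every cell with a Rspo3 UMI was left out of both classes, an alternative chosen after seeing the data and on the gene with the largest fall, 3935 genes were called in place of 3888, and 3018 genes were called both times. The 7 trabecular wall genes stayed higher, while the falls came down to 4 of the 9 genes still tested for the atrioventricular canal list, with a median log2 fold change of -0.35 in place of -1.13, and to 5 of 9 for the compact wall, where Tbx20 and Fgfr2 lost their calls.

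The members of several other programmes moved together between the classes, as the plot of calls per list shows. Structural and calcium-handling genes were higher. Of 24 sarcomere genes tested 17 were higher and 2 lower, with Ttn, the giant filament protein titin, at 0.49 (SE 0.04) and Ldb3, a Z-disc protein, at 0.45 (SE 0.04) on the log2 scale, while Lmod2, an actin filament nucleator (-0.59), and Tcap, the titin cap (-0.38), were lower. Of 16 calcium cycling genes 12 were higher and none lower, with Trdn, the triadin of the sarcoplasmic reticulum, at 0.85 (SE 0.04) and Casq1, a calsequestrin, at 0.81 (SE 0.05). Of 12 atrial chamber genes 6 were higher and 2 lower, of 13 gap junction and ion channel genes 4 were higher and 3 lower, and of 15 core cardiac factors 3 were higher and 5 lower. Only 1 atrial chamber gene was lower without Wt2 or without Ho1. Of 7 ventricular chamber genes tested 4 were higher, Irx1 (1.05, SE 0.10), Irx2 (1.00, SE 0.09), Hand1 (0.74, SE 0.09) and Myh7 (0.34), and 1 was lower, Lbh (-0.30).

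The lists of energy metabolism genes differed in direction. Of 75 nuclear-encoded respiratory chain genes 71 were higher and none lower, but by small steps, with a median log2 fold change of 0.21, and Ndufb11, a complex I subunit, led at 0.39 (SE 0.03). Of 13 mitochondrially encoded genes 12 were higher and 1 lower (mt-Nd6), with a median of 0.21, and the lower call was lost without Wt2. Genes of the fatty acid and creatine use list, which also holds cytochrome oxidase subunits and myoglobin, were higher in 14 of 22 cases and lower in none. The largest rises were in the mitochondrial creatine kinase Ckmt2 (1.65, SE 0.19), the cytochrome oxidase subunit Cox8b (1.26, SE 0.10) and myoglobin, Mb (0.86, SE 0.07). Genes of the glycolysis list, which also holds genes outside glycolysis such as Egln3 and Bnip3, were lower in 16 of 24 cases and higher in 3. Egln3, an oxygen-sensing hydroxylase (-1.43), Slc2a3, a glucose transporter (-1.20), and Bnip3, a hypoxia-induced mitophagy factor (-0.80), fell most, and Slc2a4, the insulin-responsive glucose transporter, rose by 0.59. With another scaling (RLE) the counts were 69 of 75 higher for the respiratory chain, 11 of 13 higher for the mitochondrially encoded genes and 17 of 24 lower for glycolysis. Other measures moved with these classes too. Mitochondrially encoded genes summed to 18870, 16123, 17620 and 27694 CPM in the trabecular-like cells of Wt1, Wt2, Ho1 and Ho2 and to 15104, 15373, 16553 and 24101 in the Nppa-low Myl2 cells. Of 27 dissociation and heat shock genes 15 were lower and 4 higher in the trabecular-like cells, led by Socs3, a cytokine signalling inhibitor (-1.26), and the heat shock gene Hspa1a (0.66), and without Ho1 only 1 of the 27 was higher. Median depth was 16320 to 24284 UMIs per cell over the libraries in the trabecular-like cells and 15479 to 21097 in the Nppa-low Myl2 cells. The part of these in the differences was not tested.

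Genes of cell division were lower. Of 46 G2/M phase genes 40 were lower and none higher, with a median log2 fold change of -0.35, and all 46 had a negative value. DESeq2 and the sums without Ho1 each left 28 of the 46 lower and none higher. Nusap1, a spindle-associated protein, had 26.3, 33.2, 36.6 and 34.5 CPM in the trabecular-like cells of Wt1, Wt2, Ho1 and Ho2 and 50.4 to 63.0 in the Nppa-low Myl2 cells, so the classes did not overlap (log2 fold change -0.70, SE 0.06). Of 33 S phase genes 16 were lower and 1 higher, a higher call that was lost without Wt2, Ho1 or Ho2. Most of the cell cycle inhibitors tested did not rise with this. The list, in which Cdkn1c was the most abundant gene, summed to 2565.5, 3290, 2536 and 2895 CPM in the trabecular-like cells of Wt1, Wt2, Ho1 and Ho2. In the Nppa-low Myl2 cells it summed to 2690, 3008, 2476 and 2770 CPM. Of 11 genes tested 6 were lower, among them the p21 gene Cdkn1a (-0.75) and the p27 gene Cdkn1b (-0.46), and 1 was higher, the p57 gene Cdkn1c, by 0.13. That higher call was lost with DESeq2 and without Wt2, Ho1 or Ho2, where 3 to 5 genes of the list were lower. At 2000 UMIs per cell, at least 3 UMIs of the G2/M list were found in 67.6%, 77.1%, 75.6% and 72.5% of trabecular-like cells of Wt1, Wt2, Ho1 and Ho2, and in 80.5%, 78.5%, 77.0% and 78.0% of Nppa-low Myl2 cells. The share depended on the number of UMIs asked for. With at least 5 UMIs it was 49.5%, 59.0%, 61.3% and 54.3% against 68.0%, 67.0%, 65.7% and 67.9%, lower in the trabecular-like cells of all 4 libraries, and with at least 1 UMI it was 92.8%, 94.7%, 93.9% and 89.5% against 95.1%, 94.1%, 93.9% and 93.3%. The exact 95% binomial intervals, which cover counting error only, were apart in Wt1 alone with 3 UMIs and in Wt1, Wt2 and Ho2 with 5. Of single genes at the same depth, Top2a was found in 7.21% to 15.9% of trabecular-like cells and in 13.3% to 17.8% of Nppa-low Myl2 cells, and Mki67 in 7.78% to 10.8% and 7.39% to 13.6%.

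**Figure D2:**
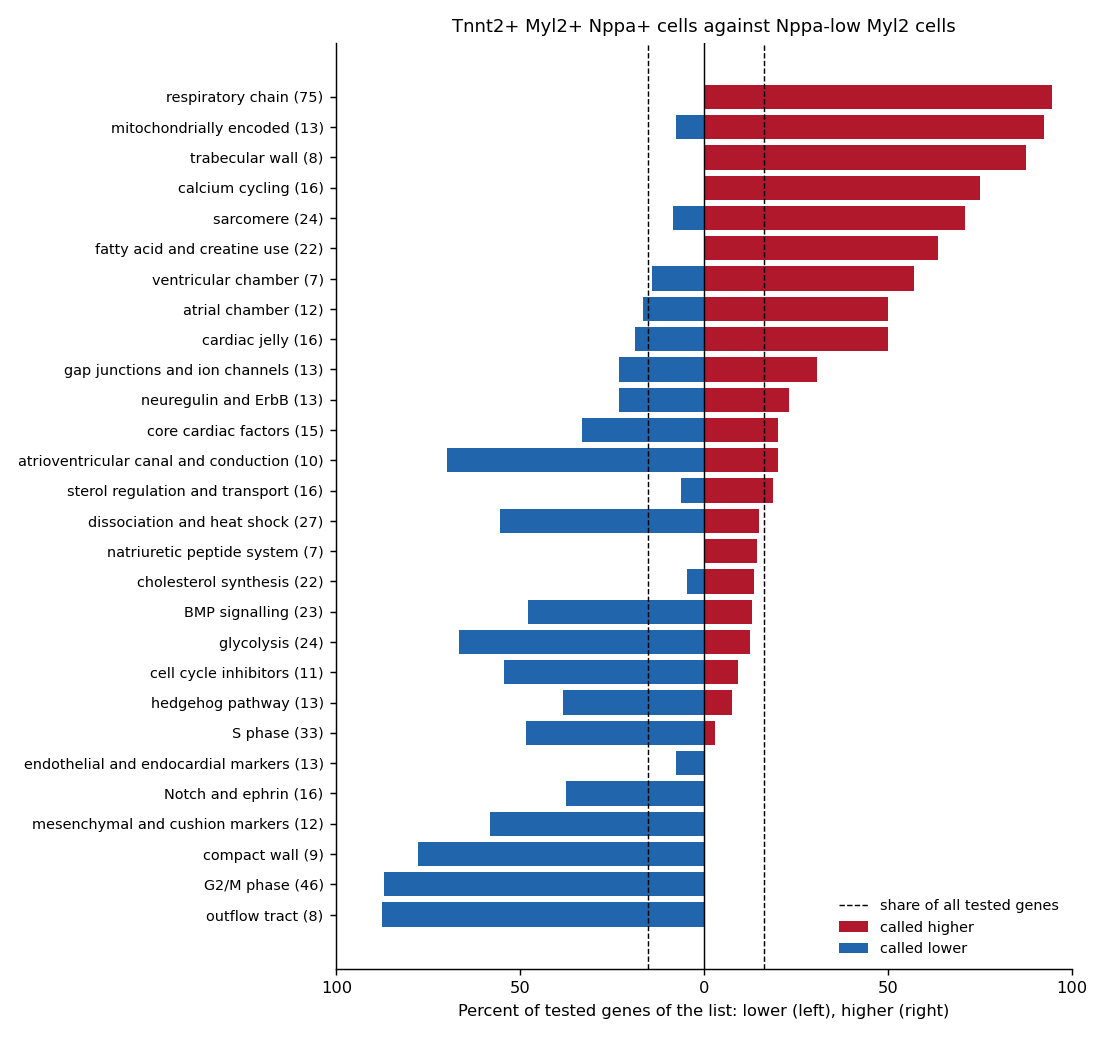
Percent of the tested genes of each list (number in brackets) that were called higher (right) or lower (left) in Tnnt2+ Myl2+ Nppa+ cells than in Nppa-low Myl2 cells by edgeR at an adjusted p of 0.05, for lists with at least 5 genes tested. Dashed lines mark the 16.2% higher and 15.3% lower among all genes tested. Respiratory chain, trabecular wall and calcium cycling genes extend to the right, and G2/M phase, outflow tract and compact wall genes to the left.

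Signalling genes around the trabeculae were mixed. Of 23 BMP signalling genes 11 were lower and 3 higher. The ligand Bmp10 rose while the ligands Bmp4 and Bmp2 fell, and the BMP-responsive inhibitors of differentiation Id1 (-1.11), Id2 (-0.96), Id3 (-0.85) and Id4 (-0.88) were all lower. Id1 had 15 to 30.2 CPM in the trabecular-like cells and 41.7 to 59.0 in the Nppa-low Myl2 cells, without overlap. Of 16 Notch and ephrin genes 6 were lower and none higher, including the ephrin ligand Efnb2 (-0.42) and the Notch effector Rbpj (-0.33), but DESeq2 left 1 of these calls and the sums without Ho1 or without Ho2 left 3 lower. Of 13 neuregulin and ErbB genes 3 were higher and 3 lower. The receptor Erbb2, which cardiomyocytes use to read neuregulin, had 27.1 to 30.7 CPM in the trabecular-like cells and 23.6 to 31.1 in the Nppa-low Myl2 cells, and did not pass the test (log2 difference 0.09). In the cardiac jelly list 8 of 16 genes were higher and 3 lower, or 7 and 1 without Ho2, led by the laminin receptor subunit Itga6 (1.29, SE 0.05) and the basement membrane collagen Col4a1 (0.51, SE 0.04). In the natriuretic peptide list only Nppb passed the test among 7 genes, and 2 passed without Wt2 or without Ho2. Of the 22 cholesterol synthesis genes 3 were higher and 1 lower, or 3 and 4 without Wt1, and of the 13 hedgehog pathway genes tested 1 was higher and 5 lower, which became 0 and 2 with DESeq2 or without Ho1 and 0 and 3 without Ho2.

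Against all 8295 other Tnnt2 cells, 5210 of 13300 genes differed (39.2%), 2734 higher (20.6%) and 2476 lower (18.6%), and the largest rises, under the same limits on level and direction, were Slit2 (3.26), Lyz2 (3.10), Bmp10 (2.90), Nppb (2.86) and Cited1 (2.86). Against the 4889 Tnnt2 cells with less than 10 CP10K of Myl2 alone, 5937 of 12912 genes differed (46%). Among all genes tested there, 23.7% were higher and 22.3% lower. Of 12 atrial chamber genes 10 were lower than in these Myl2-low cells and none higher, and of 8 ventricular chamber genes 7 were higher and 1 lower. The difference reached well beyond chamber genes, with 74 of 75 respiratory chain and 20 of 33 S phase genes higher. Of 46 G2/M phase genes 10 were higher and 2 lower, near or below the shares of all genes tested. Lower were 7 of 9 outflow tract genes, 11 of 13 mesenchymal markers and 13 of 22 cholesterol synthesis genes. Irx4, the ventricular Iroquois factor, had 39.2, 43.2, 45.6 and 63.0 CPM in the trabecular-like cells of Wt1, Wt2, Ho1 and Ho2 and 0.633 to 3.28 in the Myl2-low cells, a log2 fold change of 4.60 (SE 0.17). It did not differ from the Nppa-low Myl2 cells (44.0 to 59.8), where its log2 difference was 0.06 (adjusted p = 0.470). Pln, the phospholamban that restrains the calcium pump (3.48, SE 0.08), Wdr93 (5.23, SE 0.12) and Lyz2 (6.09, SE 0.22) rose as well. Under the same limits, falls were led by Shox2 (-5.15), a factor of the sinus venosus, Vsnl1 (-4.70), a calcium sensor of atrial muscle, Calca (-4.37), Wnt2 (-4.35) and Bmp4 (-4.32). Shox2 had 7.84, 0.506, 3.61 and 2.40 CPM against 89.8 to 170. Etv1 changed sides with the reference class, since it was lower than in the Myl2-low cells (-0.43) and higher than in the Nppa-low Myl2 cells.

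Hey2 and Prdm16, although lower than in the Nppa-low Myl2 cells, were far above the Myl2-low cells. Hey2 had 22.4, 21.7, 19.4 and 24.2 CPM in the trabecular-like cells and 1.57 to 2.63 in the Myl2-low cells (log2 fold change 3.63, SE 0.16), and Prdm16 differed by 3.88. Of the 4889 Myl2-low cells, 918 held Nppa at or above the limit, with Myl2 at 67.4 CPM in their sum. Their Gja5, at 38.3 CPM, lay within the range of the trabecular-like sums, and their Nppb, at 300.1, lay below it. Slit2 was at 4.43, Cited1 at 118 and Irx3 at 3.03, all below the trabecular-like sums, and the atrial factor Nr2f2 was at 53.0, above them.

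Among the trabecular-like cells themselves, Nppb, Bmp10, Gja5 and Cited1 were graded with Nppa. The cells were summed in bins of Nppa, with 409 cells at 10 to 20 CP10K, 426 at 20 to 50, 278 at 50 to 100 and 368 at 100 or more, and because Nppa set the bins the values are a description without a test. Mean Nppb over the 4 libraries rose from 313 ± 58.4 to 1281 ± 264 CPM from the lowest to the highest bin (SD, n = 4). Bmp10 went from 27.4 ± 4.01 to 109 ± 30.1 and Slit2 from 20.3 ± 3.06 to 183 ± 43.2. Irx3 was flat over the lower bins, with 25.7 ± 5.59, 25.1 ± 4.83, 29.7 ± 8.16 and 35.4 ± 8.75, and Etv1 and Gpr22 were not summed by bin. Nppb, Bmp10, Slit2, Gja5, Cited1 and Mest were each higher in the highest than in the lowest bin in all 4 libraries. Compact wall and cell division genes ran down the same scale, with Hey2 from 31.1 ± 5.84 to 12.3 ± 4.64, Mycn from 27.6 ± 4.11 to 10.4 ± 2.82 and the summed G2/M list from 4631 ± 330.4 to 3024 ± 378. Myl2 did not follow Nppa, with 5978 ± 432 in the lowest bin and 6036 ± 145 in the highest, although Myh7, the slow myosin heavy chain, rose from 2958 ± 368 to 5061 ± 1057. The bins of Wt1 held only 31, 37, 22 and 21 cells, and neighbouring bins were out of order for some genes, among them Cited1, Slit2, Hey2 and Mycn in that library and Gja5 and Hey2 in Ho2.

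**Figure D3:**
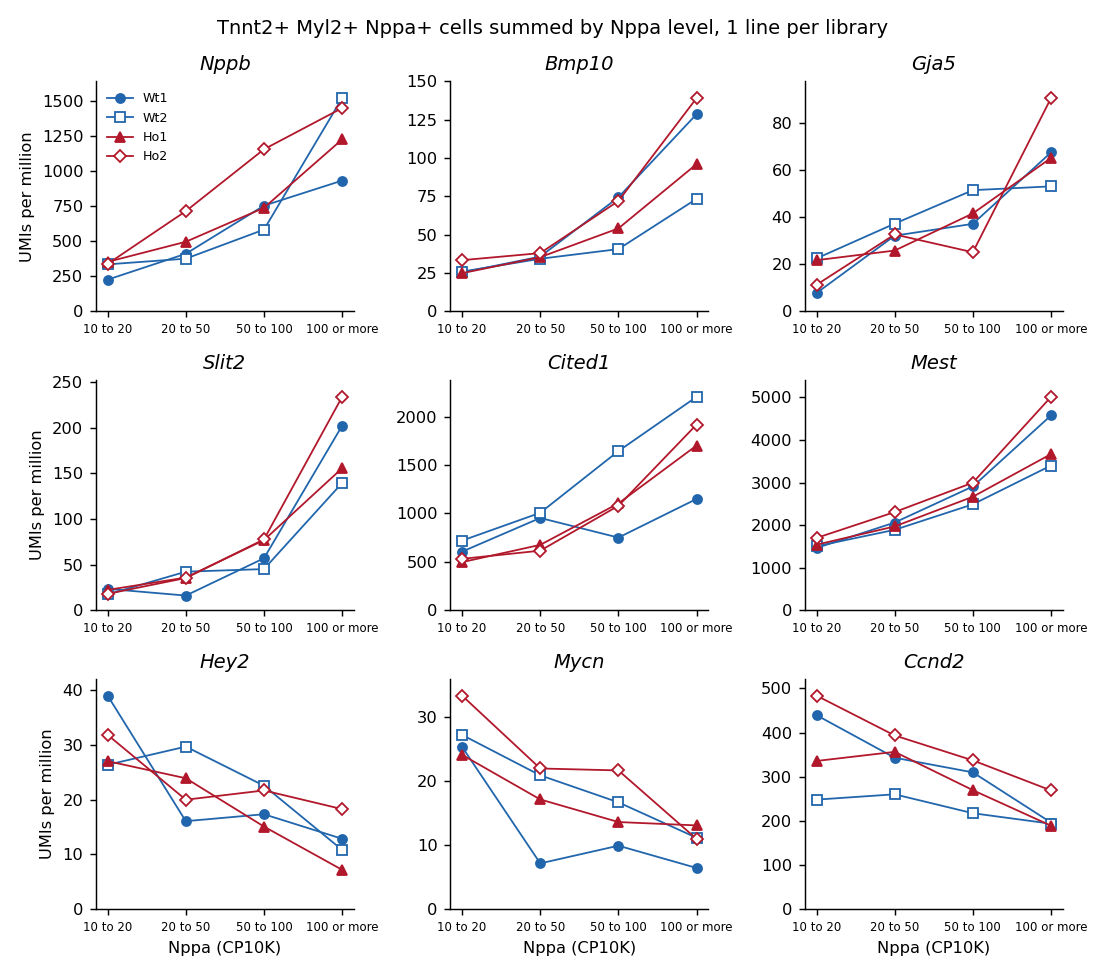
CPM of 9 genes in Tnnt2+ Myl2+ Nppa+ cells summed by the Nppa level of the cell (CP10K), 1 line per library, blue for Wt and red for Ho. Nppb, Bmp10, Gja5, Slit2, Cited1 and Mest are higher in the last bin than in the first in each library, and Hey2, Mycn and Ccnd2 are lower.

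Libraries differed in how many trabecular-like cells they held. These cells made up 7.05% of the Tnnt2 cells in Wt1 (exact 95% binomial interval 5.84% to 8.43%), 17.9% in Wt2 (16.4% to 19.5%), 19.8% in Ho1 (18.5% to 21.2%) and 10.9% in Ho2 (9.69% to 12.3%). The 2 Wt libraries averaged 12.5% ± 7.69 (SD) and the 2 Ho libraries 15.4% ± 6.31, the groups overlapped, and an exact two-sided permutation test gave p = 0.667, where 2 libraries against 2 cannot give less than 0.333. Among Tnnt2 cells with Myl2 the shares were 17.4%, 34.4%, 34.3% and 25.6%, again with Wt1 lowest and Ho2 next. The distance between libraries of 1 genotype exceeded their counting intervals, and the genotype difference of 2.89 percentage points became -2.54 without Wt1 and -1.57 without Ho1. Of all filtered cells, trabecular-like cells made up 1.34%, 6.39%, 9.74% and 4.32%, and Tnnt2 cells 19.0%, 35.6%, 49.1% and 39.6%. The Tnnt2 shares of both Ho libraries were above those of both Wt libraries (exact two-sided permutation p = 0.333, the smallest this design allows), while those of the trabecular-like cells overlapped. A smaller share cannot be told apart from cells that hold less Nppa. The share of trabecular-like cells with at least 3 UMIs of the G2/M list averaged 72.3% ± 6.75 over the Wt pair and 74.0% ± 2.17 over the Ho pair (SD; exact two-sided permutation p = 1).

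**Figure D4:**
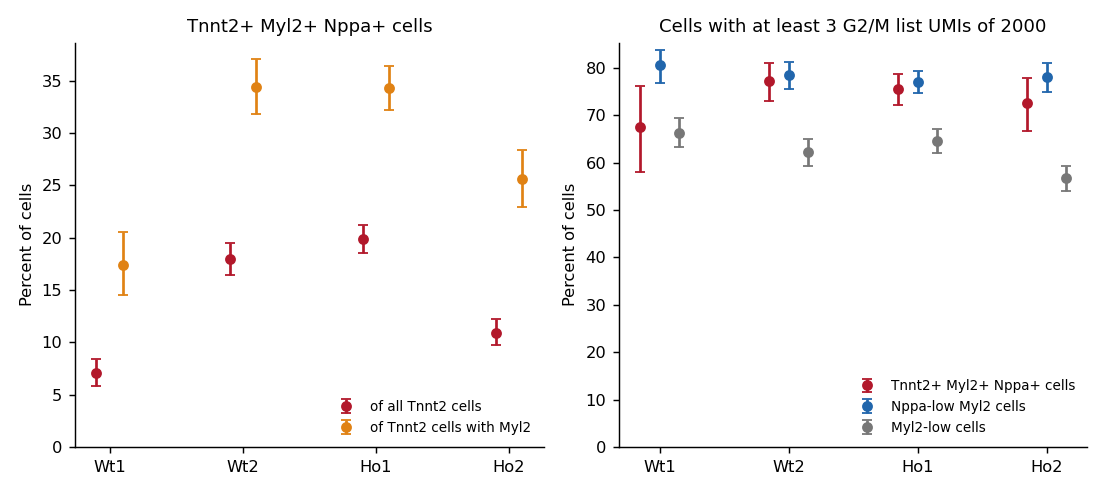
Left, percent of Tnnt2 cells, and of Tnnt2 cells with Myl2, that were Tnnt2+ Myl2+ Nppa+ cells in each library. Right, percent of cells in 3 classes with at least 3 UMIs of the G2/M list after thinning to 2000 UMIs. Bars are exact 95% binomial intervals. Wt1 and Ho2 have the lowest shares on the left, and the genotypes overlap in both shares.

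Gene levels in the trabecular-like cells did not differ detectably between the genotypes. Of 11676 genes tested in 2 Ho against 2 Wt sums, 0 (0%) passed an adjusted p of 0.05 in edgeR, 529 (4.53%) had an unadjusted p under 0.05, and DESeq2 called 1 gene, Xist, which marks the sex of Ho1. In simulated sums of this comparison, changes were placed only in genes above a floor on mean count. Of these, 138 of 200 genes changed by 1 on the log2 scale were recovered, but only 8 of 200 changed by 0.5. Changes in genes below that floor were not simulated, so real changes could have been missed. Counts of calls were sensitive to single libraries, with 6 to 35 genes when a library was left out, where the lone library of a genotype was assumed to vary like the pair of the other. Both Ho sums lay above both Wt sums for 16.5% of the genes tested and below them for 17.2%.

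The trabecular wall genes overlapped between the genotypes. All 8 trabecular wall genes were tested, and their log2 differences ran from -0.29 for Cited1 to 0.28 for Gpr22, with the Wt and Ho libraries overlapping for each. Nppb, at 526 and 755 CPM in Wt and 667 and 799 in Ho, differed by 0.19 (SE 0.16) on the log2 scale, and Bmp10 by 0.17 (SE 0.15). Of the 9 compact wall genes, Tbx20 was higher and Prdm16 lower in both Ho than in both Wt libraries, and neither passed the test, with an adjusted p of 0.980 for each. Cyp51 itself had 42.0, 40.4, 44.8 and 40.1 CPM in Wt1, Wt2, Ho1 and Ho2, a log2 difference of 0.08 (SE 0.14), which is no check of the labels, since gene counts do not read a point mutation. Gata4, the cardiac zinc-finger factor, had 47.6 and 37.4 in Wt and 46.0 and 48.0 in Ho, a difference of 0.22 (SE 0.14). For the hedgehog readouts, Ptch1, the hedgehog receptor, had 16.8 and 10.8 in Wt and 12.7 and 12.4 in Ho, and Gli1, a target and effector, was too low to be tested, with 1.68, 0.405, 0 and 0 CPM. Of 22 cholesterol synthesis genes none had an unadjusted p under 0.05. Of 22 BMP signalling genes tested both Ho sums lay above both Wt sums for 9 and below them for 0, with a median log2 difference of 0.27. Over all genes tested these shares were 16.5% and 17.2%. The counts were 7 and 1 of 15 core cardiac factors, 4 and 0 of 10 atrial chamber genes and 3 and 2 of 10 atrioventricular canal and conduction genes. They were 1 and 9 of 33 S phase genes and 3 and 15 of 75 respiratory chain genes. Of the atrioventricular canal and conduction genes 5 of 10 had an unadjusted p under 0.05 in edgeR, against 4.53% of all genes tested. Among these 5 was Rspo3, whose p of 1.69e-05 was the lowest of all genes tested (adjusted p = 0.197 in edgeR).

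The genes with the lowest unadjusted p in each direction, among those with at least 20 CPM, are given as values. The higher ones were Rps27rt (26.3 and 25.3 in Wt, 43.6 and 54.7 in Ho), Wdr89, Fosb, an immediate early gene of the AP-1 family (35.8 and 36.8 in Wt, 65.5 and 52.6 in Ho), Wsb1, Ints6 and Meg3, an imprinted non-coding RNA. The lower ones were Hist1h2ae, Actb, the cytoplasmic beta-actin (484 and 499 in Wt, 352 and 255 in Ho), Eno1, the glycolytic enolase (500 and 498 in Wt, 340 and 379 in Ho), Chchd6, Anxa2 and Adrm1. Their log2 differences ran from 0.47 to 0.93 and from -0.68 to -0.41, and the smallest adjusted p among them was 0.198 in edgeR. Without a filter on low counts 7 of these 12 passed, Rps27rt, Wdr89, Fosb, Wsb1, Ints6, Hist1h2ae and Actb, and single ones passed when a library was left out, Rps27rt without Wt1, Actb without Ho1 and Fosb without Ho2. Rps27rt and Hist1h2ae have near-identical copies in the genome, so their counts are uncertain. Of the 13 mitochondrially encoded genes 7 had an unadjusted p under 0.05 in edgeR, against 4.53% of all genes tested. Their median log2 difference was 0.40, and their summed level was 18870, 16123, 17620 and 27694 CPM in Wt1, Wt2, Ho1 and Ho2, highest in Ho2. For 5 of the 13 genes both Ho sums lay above both Wt sums, and for 0 below them, against 16.5% and 17.2% of all genes tested. The blood markers summed to 1.12, 5.77, 127 and 7.76, with Hba-x, an embryonic alpha globin, the most abundant and Alas2 at 0, and this sum was highest in Ho1. Of 27 dissociation and heat shock genes 6 had an unadjusted p under 0.05 in edgeR, again against 4.53% of all genes tested. Their median log2 difference was 0.15, with summed levels of 8076, 8625, 7921 and 8344. The part of mitochondrial RNA, blood RNA and sex in the genotype values was not tested.

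**Figure D5:**
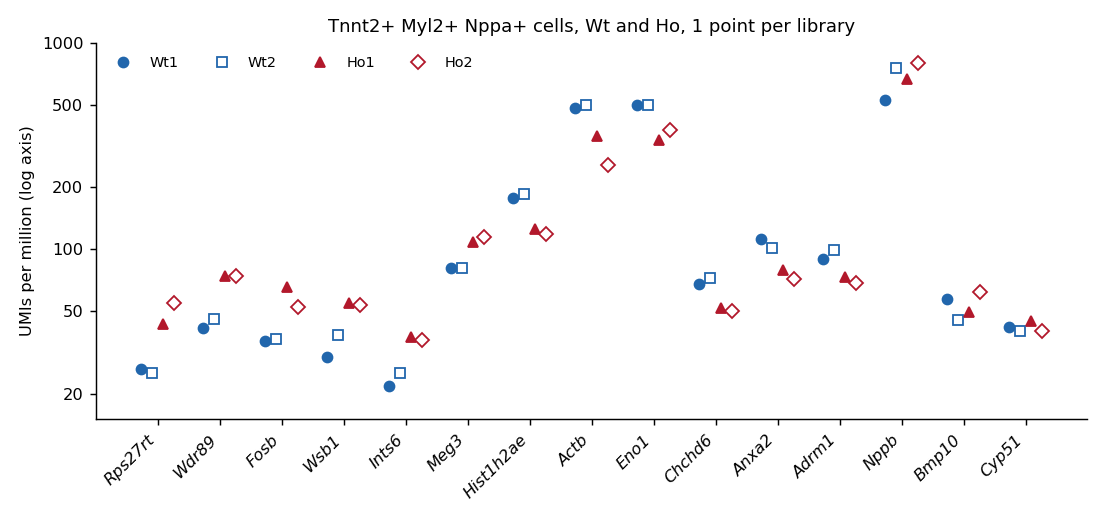
CPM (log axis) in Tnnt2+ Myl2+ Nppa+ cells of each library, Wt in blue and Ho in red, for the 6 genes of lowest unadjusted p in each direction and for Nppb, Bmp10 and Cyp51. The first 12 genes separate the genotypes, as the rule that picked them favours, without passing the adjusted threshold, and the last 3 overlap.

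Whether the genotype difference was itself different in the trabecular-like cells was tested as an interaction against the other Tnnt2 cells. Of 13910 genes 2 passed (0.0144%), Rspo3 and Pf4. Rspo3 had 1.12 and 3.44 CPM in the trabecular-like cells of Wt and 14.8 and 10.3 in those of Ho, and in the other Tnnt2 cells 86.3 and 82.6 in Wt and 127 and 121 in Ho. Both classes were higher in both Ho libraries. The difference was larger in the trabecular-like cells by 1.52 on the log2 scale (SE 0.26, adjusted p = 0.0368). In the Ho trabecular-like cells, Rspo3 fell from bin to bin as Nppa rose. From the lowest to the highest Nppa bin it was 21.2, 17.2, 10.7 and 7.17 CPM in Ho1 and 21.6, 8.67, 1.14 and 0 in Ho2. In Wt1 it was 0, 1.79, 2.48 and 0, and in Wt2 6.06, 2.93, 4.51 and 1.01. The 11 cells just inside the Myl2 limit held 80.9 CPM. Pf4, a chemokine of platelets and macrophages, had 0 and 2.63 in Wt and 8.60 and 0.185 in Ho among the trabecular-like cells, against 0.545, 61.1, 29.2 and 0.148 in Wt1, Wt2, Ho1 and Ho2 among the others. Its values went with library rather than genotype, and its interaction was 2.76 (SE 0.30, adjusted p = 3.64e-05). DESeq2 called neither gene, and 0 genes were called at a gate of 20 CP10K.

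Markers of other cell types were low in the trabecular-like cells. The 14 endothelial and endocardial markers summed to 203, 136, 170 and 59.7 CPM in Wt1, Wt2, Ho1 and Ho2, close to the 83.2 to 181 of the Nppa-low Myl2 cells, with Egfl7 the most abundant and 1 of the 13 tested, Kdr, lower. The 14 mesenchymal and cushion markers summed to 124 to 153, led by Prrx2, and 7 of the 12 tested were lower than in the Nppa-low Myl2 cells, or 4 without Ho1. Epicardial markers summed to at most 16.7, with Msln at 0, and epithelial markers to at most 71.1, with Pax9 at 0. Doublet scores put 5, 37, 36 and 10 trabecular-like cells of Wt1, Wt2, Ho1 and Ho2 among those expected to be doublets. Without such cells the comparison with the Nppa-low Myl2 cells called 3777 genes, and that between the genotypes called 1, Rspo3.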

How the data were processed

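Hearts were dissociated and single-cell libraries were prepared on the 10x Genomics platform. The authors deposited raw UMI counts per gene and barcode, made with Cell Ranger 6.1.1 on the mm10 (GRCm38) reference. The submitters' notes also name Seurat 4.1.0. The files list 32285 genes.

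Barcodes with 500 to 6000 genes, 2000 to 50000 UMIs and at most 20% mitochondrial UMIs were kept, with 10 CP10K as the limit for each of the 3 genes of the rule, so that 2 UMIs of a gene sufficed in a cell of 2000 UMIs. Counts were summed per library and class and tested with edgeR 4.0.16 (quasi-likelihood, TMM scaling, filterByExpr, R 4.3.3) with Benjamini-Hochberg adjustment over all genes tested, at 0.05. The library was a block wherever classes were compared. Standard errors were the log2 fold change divided by the square root of F, and levels are counts per 1000000 UMIs of the summed cells (CPM). The 3 genes of the rule stayed in the library sizes and out of the tests. Thinning drew 2000 UMIs per cell. Doublets were not removed, and an alternative took out the cells with the highest Scrublet scores (scanpy 1.11.5), because Scrublet's own threshold marked too few cells in Ho2. Each test was tested on simulated data. DESeq2 1.42.0, other filters, other limits, leaving out each library and a replicate block were tried as alternatives.

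The members and the gene lists were chosen with earlier results of these data known. The text names the genes of the wall lists, the genes with the largest changes among those called with a mean of at least 20 CPM and the same direction in every library (for the genotypes, those of lowest unadjusted p), and up to 4 genes of largest change per other list. Erbb2, Tbx3, Tbx2, Tcap, Id4, Rbpj and other genes outside this rule were chosen after their values were seen. Of the genes first placed in the lists, 2 are not reported here and were left out of the list counts.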

Additional observations from a re-analysis of the deposited data

Results flagged for a closer look

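The genotype difference of 2 genes differed between the trabecular-like cells and the other Tnnt2 cells by the interaction test in edgeR. For Rspo3 the interaction was 1.52 on the log2 scale (SE 0.26, adjusted p = 0.0368), with 14.8 and 10.3 CPM in the trabecular-like cells of Ho1 and Ho2 and 1.12 and 3.44 in those of Wt1 and Wt2. For Pf4 it was 2.76 (SE 0.30, adjusted p = 3.64e-05), with the level high in Wt2 and Ho1 and near 0 in Wt1 and Ho2 among the other Tnnt2 cells, and with 0, 2.63, 8.60 and 0.185 CPM in the trabecular-like cells of Wt1, Wt2, Ho1 and Ho2. Neither call was stable. Both were lost with DESeq2, without Ho1, at a gate of 20 CP10K, at Myl2 of at least 50 CP10K and with the gate applied after thinning, with adjusted p of 0.089 to 1.00 over these settings, and that of Pf4 also without Wt2. The Rspo3 interaction itself was 1.77 with DESeq2, 1.23 without Ho1 and 1.67 at the gate of 20 CP10K. It was 1.91 at Myl2 of at least 50 CP10K and 1.13 with the gate applied after thinning. Pf4 had the opposite sign at the gate of 20 CP10K (-0.10), and its level went with library rather than genotype.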

How the results depend on the processing

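Comparisons between classes of cells were the firmest. The numbers of genes called, when each library was left out, ran from 4121 to 4960 against all other Tnnt2 cells, from 2524 to 3965 against the Nppa-low Myl2 cells and from 4838 to 5777 against the Myl2-low cells. DESeq2 called 1969 genes against the Nppa-low Myl2 cells. Of the named genes there, Ccnd1 changed sign without Ho1 (-0.046, in a range up to 0.087 when a library was left out) and without cells holding Rspo3 (-0.080), Gpr22 at Myl2 of at least 50 CP10K (0.12), and Cyp51 without cells holding Rspo3 (0.036). The cause was not tested.

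Between the genotypes, the count of 0 became 1 with DESeq2 (Xist), 1 without the highest doublet scores (Rspo3, 2.33), 42 without a filter on low counts, and 6 to 35 when a library was left out. With the replicate number as a block 15 genes were called, among them Rps27rt, Wdr89, Hist1h2ae and Actb, but same-numbered libraries did not deviate together (r = -0.0281 over 11679 genes), so the libraries share only a number. Signs changed for Ptch1 with DESeq2 (-0.057), with the replicate block (-0.060) and at Myl2 of at least 50 CP10K (-0.041). When a library was left out, the log2 difference ran from -0.41 to 0.22 for Ptch1, from -0.042 to 0.48 for Nppb, from -0.056 to 0.30 for Bmp10, from -0.016 to 0.33 for Gata4 and from -0.056 to 0.16 for Cyp51. The interaction gave 0 genes with DESeq2, with at least 10 UMIs in every sum, at a gate of 20 CP10K and with the gate applied after thinning, 17 without a filter, 9 at Myl2 of at least 50 CP10K and 9 to 14 when a library was left out. Pf4 had the opposite sign at the gate of 20 CP10K (-0.10).

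The genotype difference in the share of trabecular-like cells ran from -2.54 to 8.33 percentage points when a library was left out. That in the share of cells with the G2/M list ran from -3.10 to 6.45, and it was -0.861 at Myl2 of at least 50 CP10K, -2.03 with at least 1 UMI and -2.19 after thinning to 5000 UMIs. The sum of Wt1 rests on 111 cells, and the part of depth, sex, blood RNA and mitochondrial RNA in the genotype comparison was not tested.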
